A study of Mus musculus with 23 samples.

Results

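The 2 single-mutant genotypes of this mouse series were compared directly: 5 AppNLGF libraries against 6 p16KO libraries, 11 of the 23 libraries in all, across every gene with enough reads to test. They were taken by their genotype labels, P16<KO/KO> for p16KO and APP<NLGF/NLGF> for AppNLGF, both from mice of about 5 months. Each library held polyA RNA of both hippocampi of a mouse, and the remaining libraries came from 6 wild-type mice (WT) and 6 mice with both mutations (AppNLGF_p16KO). The labels give no sex, litter, batch or strain background, and do not say which part of Cdkn2a was removed. Direct comparison of single mutants differs from a comparison with WT in that 2 loci, App on chromosome 16 and Cdkn2a on chromosome 4, differ between the groups at once. The sign of a difference does not say which of the 2 genotypes departs from WT, so WT levels are given beside some of the leading genes.

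Cdkn2a encodes p16, an inhibitor of the cyclin D kinases that holds the retinoblastoma protein in its growth-restraining form, and from another reading frame p19Arf, which stabilises p53. AppNLGF is a knock-in line in which the endogenous App gene, under its own promoter, carries mutations of familial Alzheimer's disease, so that amyloid-beta accumulates without a transgene. In brains with amyloid plaques, microglia, the resident macrophages, take on a state marked by Trem2, Tyrobp, Cst7, Clec7a and Itgax. Type I interferon is a second innate pathway: its receptor activates transcription of the Ifit, Oas, Mx and guanylate-binding protein genes.

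Total counts ran from 45.4e6 to 61.2e6 in p16KO and from 40.7e6 to 57.0e6 in AppNLGF. Of 37173 genes in the table, 19423 were tested. Xist exceeded Y-linked genes in 3 of 6 p16KO and 2 of 5 AppNLGF libraries. The mitochondrial share of counts was 2.79% to 3.54% in p16KO and 3.74% to 3.99% in AppNLGF, without overlap, and 3.03% to 3.92% in WT. Neuronal markers were abundant in all libraries, with a summed level of 12250 to 12940 counts per 1e6 counts (CPM) in p16KO and 12550 to 13310 in AppNLGF. Across the 18 marker lists for cell types and neighbouring brain regions, 0 of 179 tested genes passed the edgeR test, and DESeq2 called 1. At an unadjusted p under 0.05 there were 17 of 179, where 14.5% of all genes were. The library p16KO 7 stood apart from the other p16KO libraries. Ighm was 46.4 CPM there against 8.84 to 14.1. The striatum list reached 1.12 on the log2 scale relative to the mean of all libraries, against -0.44 to 0.14. This list was also high in AppNLGF 15, at 0.84, and in WT 1, at 0.87. Choroid plexus markers varied widely, summing to 634.9 to 5903 CPM in p16KO, 1569 to 4026 CPM in AppNLGF and 138.2 to 3415 CPM in WT.

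Cdkn2a was barely detected in either group. On chromosome 4 (GRCm38, positions 89274471 to 89294653), the p16KO libraries 7 to 12 held 0, 1, 2, 1, 0 and 0 reads and the AppNLGF libraries 13 to 17 held 2, 6, 9, 4 and 4. In CPM, p16KO ranged from 0 to 0.0341 and AppNLGF from 0.0383 to 0.158, without overlap. The means were 0.0117 ± 0.0141 CPM (SD, n = 6) and 0.0951 ± 0.0447 CPM (SD, n = 5), and a two-sided exact permutation test over 462 assignments of the libraries gave p = 0.00216, the smallest it can give. The WT mean was 0.05003 CPM, between those of the 2 mutants, and WT libraries ran from 0 to 0.102 CPM, overlapping both. The permutation test compared the mutants only, so which of them departs from WT was not tested. Counts were per gene, so the transcripts for p16 and p19Arf were not separated. App itself, at 1572 ± 53.8 CPM in AppNLGF and 1623 ± 57.5 CPM in p16KO, differed by -0.05 ± 0.05 on the log2 scale (SE; edgeR quasi-likelihood test, Benjamini-Hochberg adjusted p = 0.549). The App ranges overlapped, and gene counts do not read which sequence an App transcript carries.

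Between the genotypes, 118 of 19423 genes passed an adjusted p of 0.05, which is 0.608% of those tested. Of these, 80 (0.412%) were higher in AppNLGF and 38 (0.196%) were lower. The higher genes changed more: their median log2 difference was 0.72, and 24 of them exceeded 2-fold, while the lower genes had a median of -0.34 with 5 past 2-fold. Over all genes tested the median was -0.0029. CPM of the groups did not overlap for 61 of the 80 and 33 of the 38, and that criterion alone was met by 2.99% of all genes, 1.42% with AppNLGF higher and 1.57% with AppNLGF lower. The counts rested on single libraries to an extent: 50 genes passed without AppNLGF 17 and 61 without p16KO 11.

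**Figure D1:**
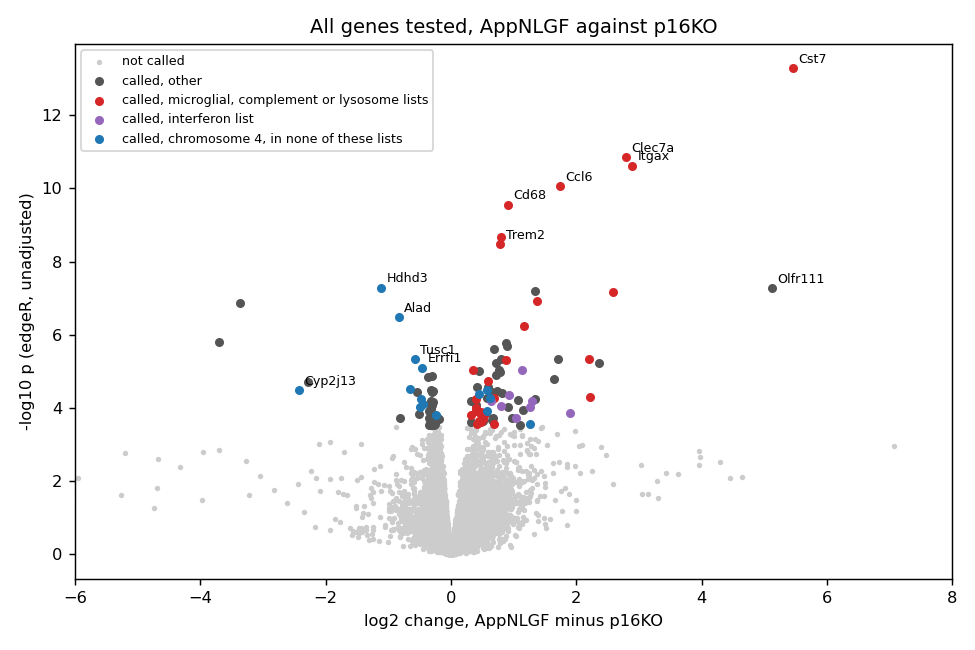
Each point is a tested gene, with the log2 difference AppNLGF minus p16KO on the x axis and minus log10 of the unadjusted edgeR p on the y axis; coloured points passed an adjusted p of 0.05. The far right is held by microglial genes led by Cst7, and the left by Hdhd3, Alad and a few scarce genes.

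Among the genes higher in AppNLGF, those of plaque-associated microglia came first. Cst7, which encodes cystatin F, an inhibitor of lysosomal cysteine proteases, was close to the detection floor in p16KO libraries, at 0.0440, 0.0981, 0.307, 0.178, 0.0553 and 0.0957 CPM. AppNLGF libraries held 7.88, 5.51, 6.99, 3.72 and 5.73 CPM, so the lowest of them lay far above the highest p16KO library. The log2 difference was 5.46 ± 0.35 (adjusted p = 1.01e-09). In WT, Cst7 was 0.177 ± 0.105 CPM (n = 6), at the level of p16KO.

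Clec7a, the receptor for fungal beta-glucans known as dectin-1, was 0.418, 0.392, 0.768, 0.832, 0.258 and 0.574 CPM in p16KO and 4.27, 3.43, 3.48, 2.64 and 5.09 CPM in AppNLGF. Every AppNLGF library was above every p16KO library, with a log2 difference of 2.79 ± 0.24 (adjusted p = 1.34e-07). Itgax, which encodes the integrin CD11c, rose from 0.276 to 0.515 CPM across p16KO to 1.78 to 3.61 CPM across AppNLGF (log2 2.89 ± 0.25, adjusted p = 1.55e-07). Both genes had WT means near those of p16KO, 0.523 CPM for Clec7a and 0.370 CPM for Itgax.

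The receptor Trem2 and its signalling adaptor Tyrobp differed by less, from a much higher base. Trem2 was 14.5, 11.6, 15.7, 12.2, 13.0 and 12.3 CPM in p16KO and 23.1, 21.2, 26.2, 20.9 and 23.1 CPM in AppNLGF. Tyrobp was 14.5, 13.9, 15.4, 15.2, 12.2 and 12.6 CPM in p16KO and 25.2, 24.4, 28.4, 20.2 and 24.4 CPM in AppNLGF. Neither gene overlapped between the groups, and their log2 differences were nearly the same, 0.79 ± 0.09 for Trem2 (adjusted p = 9.25e-06) and 0.80 ± 0.09 for Tyrobp (adjusted p = 6.8e-06). Cd68, a lysosomal membrane protein of phagocytes, rose by a similar amount, from 7.58 ± 0.516 to 14.3 ± 2.05 CPM (log2 0.90 ± 0.09, adjusted p = 1.09e-06).

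Further leading genes encode chemokines and surface proteins of leukocytes. The chemokine Ccl6 rose from 1.98 ± 0.517 CPM in p16KO to 6.64 ± 0.658 in AppNLGF (log2 1.73 ± 0.16, adjusted p = 4.29e-07). Ccl3, an inflammatory chemokine of macrophages, was 0.0660, 0.245, 0.188, 0.416, 0.0737 and 0.191 CPM in p16KO and 0.899, 1.04, 2.09, 0.855 and 1.13 CPM in AppNLGF (log2 2.58 ± 0.34, adjusted p = 1.2e-04). The groups did not overlap, and AppNLGF 15 was well above the other AppNLGF libraries. Cd180, a Toll-like receptor homologue that acts with the protein MD-1, rose 2.54-fold (log2 1.34 ± 0.18, adjusted p = 1.2e-04) and Gpr84, a receptor for medium-chain fatty acids, rose 2.58-fold (log2 1.37 ± 0.19, adjusted p = 1.91e-04). Cd52, a small surface glycoprotein of leukocytes, rose 2.25-fold (log2 1.17 ± 0.18, adjusted p = 7.48e-04).

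Olfr111, annotated as an olfactory receptor gene, had 3 reads over all p16KO libraries and 105 over all AppNLGF libraries. Per library total this was a ratio of 43.3, with a 95% interval of 14.4 to 213 for counting error only, and edgeR gave an adjusted p of 1.13e-04. Only p16KO 10 held any reads among the p16KO libraries, at 0.0594 CPM, while the AppNLGF libraries held 0.231 to 0.541 CPM. Olfactory receptor genes form a large family of similar sequences. Only uniquely aligned reads were counted, per the labels, so reads matching several members would be missing, to an unknown extent.

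**Figure D2:**
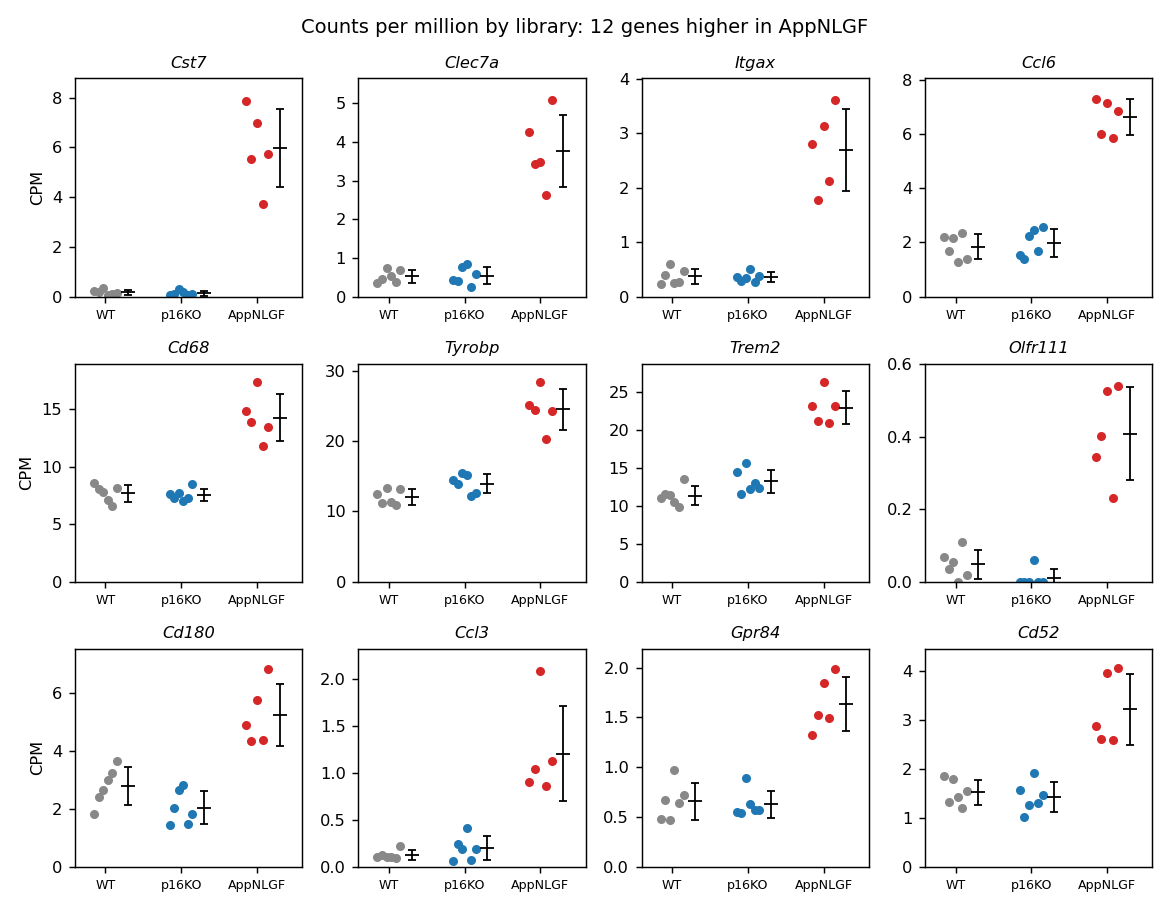
CPM in each WT, p16KO and AppNLGF library for the 12 genes higher in AppNLGF with the smallest p; the bars give mean ± SD. In all 12 panels the AppNLGF points sit above every p16KO point, and p16KO sits near WT for Cst7, Clec7a, Itgax and Cd68.

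Described as lists, the microglial genes that were called were all higher. Of 36 plaque-associated genes tested, 14 were higher in AppNLGF and 0 lower, 38.9% against 0.608% of all genes, with a median log2 difference of 0.30 and 25 of 36 above 0. The summed level of this list overlapped, at 5148 to 5957 CPM in p16KO and 5175 to 5862 CPM in AppNLGF. Of 26 genes of homeostatic microglia, 7 were higher and 0 lower, with a median of 0.26 and 25 of 26 above 0, where 49.4% of all genes were above 0. Its calls numbered 3 without p16KO 11 or without AppNLGF 17, and 4 without p16KO 8, p16KO 12 or AppNLGF 15. Among the members of this second list that rose were Gpr84, given above, and Irf8, a transcription factor of the microglial lineage (5.51 ± 0.775 to 8.37 ± 1.19 CPM, adjusted p = 0.00932). In bulk tissue, more cells of a type and more RNA per cell cannot be told apart. The study's hippocampal microglia were not sorted, and markers of perivascular macrophages summed to 18.4 to 25.2 CPM in p16KO and 19.6 to 32.4 CPM in AppNLGF, with 0 of 10 called.

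Complement, the tagging system for phagocytosis, followed with 7 of 20 tested genes higher and 0 lower. C3ar1, the receptor for the fragment C3a, rose from 2.21 ± 0.424 CPM to 4.07 ± 0.935 CPM (log2 0.87 ± 0.15, adjusted p = 0.00398), and C1qb, a chain of the initiating factor C1q, from 45.3 ± 6.61 CPM to 63.7 ± 7.40 CPM (adjusted p = 0.0302). The groups overlapped for C1qb, since AppNLGF 16 held 50.6 CPM and p16KO 7 held 55.1 CPM, and its call was lost in 8 of the 11 fits that each left out a library. The list median was only 0.09, and it was 0.25 without p16KO 7. Without p16KO 11, and likewise without AppNLGF 17, 2 complement genes were called.

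Lysosomal genes were called in 4 of 33 cases, all higher, and among them the cathepsin Ctsz rose by 0.40 ± 0.08 on the log2 scale (adjusted p = 0.0178). Ctss, another cathepsin, rose by 0.39 ± 0.09 (adjusted p = 0.0242). The Ctsz call was lost in 3 and the Ctss call in 7 of the 11 fits that each left out a library, and the list had 2 calls without p16KO 11, AppNLGF 13 or AppNLGF 15. Levels of both did not overlap between the groups: Ctss was 64.3 to 90.2 CPM in p16KO and 90.3 to 118.9 CPM in AppNLGF. The list median was 0.05, close to that of all genes. Fc and Toll-like receptor genes had a median of 0.30, with 19 of 20 above 0, yet 2 calls, Fcer1g (adjusted p = 0.0302) and Inpp5d (adjusted p = 0.0444), neither of which was called without AppNLGF 17.

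The Type I interferon response list behaved differently from the microglial lists in where WT stood. All 38 tested members were higher in AppNLGF than in p16KO, by a median log2 of 0.67, and 8 were called (21.1%): Ifit3b, Gbp3, Ifih1, Ifit3, Sp100, Ifit1, Mx1 and Irf7. At an unadjusted p under 0.05 there were 33 of 38, against 14.5% of all genes. Relative to WT, the same list had a median of 0.43 in AppNLGF and -0.26 in p16KO, and 0 members were called in either comparison by edgeR, where 0.319% and 0.309% of all genes were called. These comparisons share libraries with each other and are given side by side only.

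Ifit3b, one of the tetratricopeptide proteins induced by interferon, was 1.94, 0.997, 1.79, 1.76, 1.95 and 2.20 CPM in p16KO and 2.45, 3.06, 3.12, 3.97 and 7.10 CPM in AppNLGF. The groups did not overlap, though AppNLGF 13 came close to the highest p16KO library (log2 1.14 ± 0.20, adjusted p = 0.00601). Gbp3, a guanylate-binding protein that acts against intracellular pathogens, was 2.35, 3.48, 2.75, 4.22, 2.78 and 2.41 CPM in p16KO and 5.47, 4.65, 4.28, 5.22 and 9.04 CPM in AppNLGF (log2 0.92 ± 0.19, adjusted p = 0.0158). Its lowest AppNLGF library was only just above the highest p16KO library. Ifih1, the sensor of double-stranded RNA also called MDA5, was 2.82, 3.81, 3.53, 3.31, 3.19 and 3.85 CPM in p16KO and 4.48, 4.84, 5.06, 5.02 and 7.35 CPM in AppNLGF (log2 0.63 ± 0.13, adjusted p = 0.0184). WT held 4.87 ± 0.552 CPM of Ifih1, which lies within the range of AppNLGF rather than p16KO. Ifit3 rose from 2.79 ± 0.791 to 6.89 ± 3.88 CPM (log2 1.29 ± 0.26, adjusted p = 0.0184).

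In each of these 4 genes the highest value belonged to AppNLGF 17, which was also the highest library for the whole Type I interferon response list, at 1.15 on the log2 scale relative to the mean of all libraries. The other AppNLGF libraries lay between 0.12 and 0.42, and the p16KO libraries between -0.59 and just under 0. WT libraries ran from -0.23 to 0.32 and overlapped both mutants. Without AppNLGF 17 the list's median was 0.40 and 1 member was called, and without p16KO 11, the lowest library, 2 were called. DESeq2 called 17 members.

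The promoters of 4 called members hold the interferon-stimulated response element, shown here because these genes moved together. The element was searched as GAAA, any 2 bases and GAAA on both strands in the 250 bases before the start of each gene in the RefSeq promoters of GRCm38.p6, overlapping matches included. Capitals mark its matches, which on this strand read TTTC, any 2 bases and TTTC, with 10 bases of plus-strand sequence on either side:
Gbp3, chr3:142559989-142560024: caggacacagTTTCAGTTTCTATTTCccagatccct
Ifit1, chr19:34640775-34640823: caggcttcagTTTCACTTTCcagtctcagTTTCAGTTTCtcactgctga
Ifit3, chr19:34583363-34583426: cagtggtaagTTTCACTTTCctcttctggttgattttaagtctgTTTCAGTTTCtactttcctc
Ifit3b, chr19:34607759-34607822: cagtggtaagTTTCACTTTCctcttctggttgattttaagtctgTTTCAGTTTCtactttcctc

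Each window holds 2 matches. The Ifit3 and Ifit3b windows were identical at 64 of 64 bases, and these neighbouring genes are near copies. Only uniquely aligned reads were counted, per the labels, so reads matching both would be missing from both. How many were lost is unknown. Of the 26 list members with a promoter in the table, 11 (42.3%) held the element, against 3.09% of the 13312 tested genes with a promoter. Among the genes called higher it was found in 7 of 64 (10.9%): B2m, Ctss, Gbp3, Gbp5, Ifit1, Ifit3 and Ifit3b, named after their values were seen. It was found in 0 of 27 called lower. The core of the site of PU.1, the transcription factor that sets the macrophage lineage, was searched as GAGGAAGT and was present in 7 of 64 genes called higher (10.9%) and 0 of 27 called lower, against 2.67% of tested genes. In the microglial lists it was found in 1 of 27 plaque-associated genes with a promoter (3.70%) and 0 of 18 homeostatic ones, and in 0 of 9 and 0 of 6 of their called members. These matches describe the letters of the windows only.

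**Figure D3:**
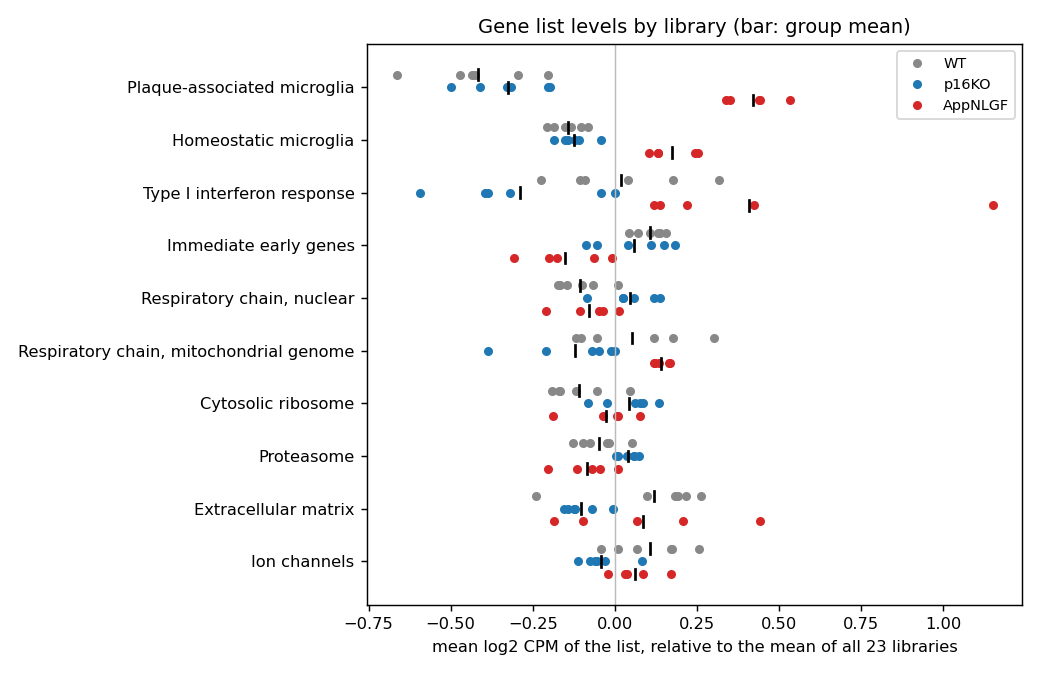
Mean log2 CPM of each list in each WT, p16KO and AppNLGF library, relative to the mean of all 23 libraries, with a bar at the group mean. AppNLGF sits above both other groups without overlap in the microglial lists. In the interferon list the WT mean lies between those of the 2 mutants, but WT libraries overlap both. AppNLGF 17 stands far to the right there.

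Genes lower in AppNLGF were fewer, and the leading pair were neighbours. Hdhd3, which encodes a haloacid dehalogenase-like hydrolase, and Alad, the second enzyme of haem synthesis, lie side by side on chromosome 4 at 62499008 to 62503467 and 62509169 to 62519918. Hdhd3 was 8.40, 10.5, 10.6, 8.91, 11.2 and 8.73 CPM in p16KO and 4.88, 3.85, 5.11, 4.15 and 4.57 CPM in AppNLGF (log2 -1.12 ± 0.15, adjusted p = 1.13e-04). Alad was 36.3, 34.3, 43.3, 27.3, 40.6 and 32.6 CPM in p16KO and 18.8, 20.8, 23.4, 18.3 and 19.4 CPM in AppNLGF (log2 -0.84 ± 0.12, adjusted p = 4.54e-04). Neither gene overlapped between the groups. WT matched AppNLGF, with 4.87 ± 0.775 CPM of Hdhd3 and 17.8 ± 0.784 CPM of Alad, while AppNLGF_p16KO held 9.12 ± 2.24 and 34.2 ± 6.79 CPM. They were the 2 called members, both lower, of a list of 27 tested genes for haem synthesis and iron, whose median was -0.07. That list counts Hdhd3, the neighbour of Alad, which is not an enzyme of haem synthesis. Alad was thus its only called gene of haem synthesis or iron.

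Tusc1, a small intronless gene 4.06 Mb from Cdkn2a, was 8.76, 9.32, 10.4, 7.74, 10.2 and 8.53 CPM in p16KO and 6.62, 6.56, 6.02, 5.95 and 5.70 CPM in AppNLGF, without overlap (log2 -0.58 ± 0.10, adjusted p = 0.00395). Its mean in WT, 6.11 ± 0.541 CPM, was that of AppNLGF. Cyp2j13, a cytochrome P450 gene 6.75 Mb from Cdkn2a, was scarce, at 0.154 to 0.737 CPM in p16KO and 0.0366 to 0.142 CPM in AppNLGF (log2 -2.43 ± 0.48, adjusted p = 0.0138). Ipp, which encodes an actin-binding kelch protein, was also lower (16.0 ± 1.66 against 11.6 ± 0.821 CPM, adjusted p = 0.0178), a call lost without p16KO 11, AppNLGF 15 or AppNLGF 16.

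Several lower genes had WT levels between the mutants. Errfi1, a feedback inhibitor of the epidermal growth factor receptor, was 70.2, 57.8, 60.0, 67.0, 56.8 and 65.7 CPM in p16KO and 50.4, 45.6, 45.8, 49.4 and 38.8 CPM in AppNLGF. All AppNLGF libraries were below all p16KO libraries (log2 -0.46 ± 0.08, adjusted p = 0.00564), and WT held 54.2 ± 5.90 CPM. A pair of inositol phosphate kinases also fell, Ip6k2 by 0.30 ± 0.06 (adjusted p = 0.00757) and Ippk by 0.37 ± 0.07 (adjusted p = 0.00776) on the log2 scale. Napepld, the phospholipase that releases N-acylethanolamines, was 48.7 ± 2.91 CPM in p16KO and 39.1 ± 2.01 CPM in AppNLGF (log2 -0.33 ± 0.06, adjusted p = 0.0138).

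Bambi, a decoy receptor for transforming growth factor beta, fell from 9.52 ± 1.28 CPM in p16KO to 6.60 ± 0.647 CPM in AppNLGF (adjusted p = 0.0138). Smaller differences were those of Lratd1 (log2 -0.29 ± 0.06, adjusted p = 0.0138) and the ubiquitin ligase Rnf19a (log2 -0.31 ± 0.06, adjusted p = 0.0138). Stmn4, a stathmin that binds tubulin, was called lower as well, at 175.0 to 198.4 CPM in p16KO and 141.3 to 157.7 CPM in AppNLGF (adjusted p = 0.0217). It was the only call among 26 genes of neuronal microtubules by edgeR, and WT held 184.6 ± 18.0 CPM, the level of p16KO. Without AppNLGF 17, neither Napepld, Bambi, Lratd1 nor Rnf19a was called. The Stmn4 call was lost without p16KO 9, p16KO 11, p16KO 12, AppNLGF 15 or AppNLGF 16, each left out alone.

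**Figure D4:**
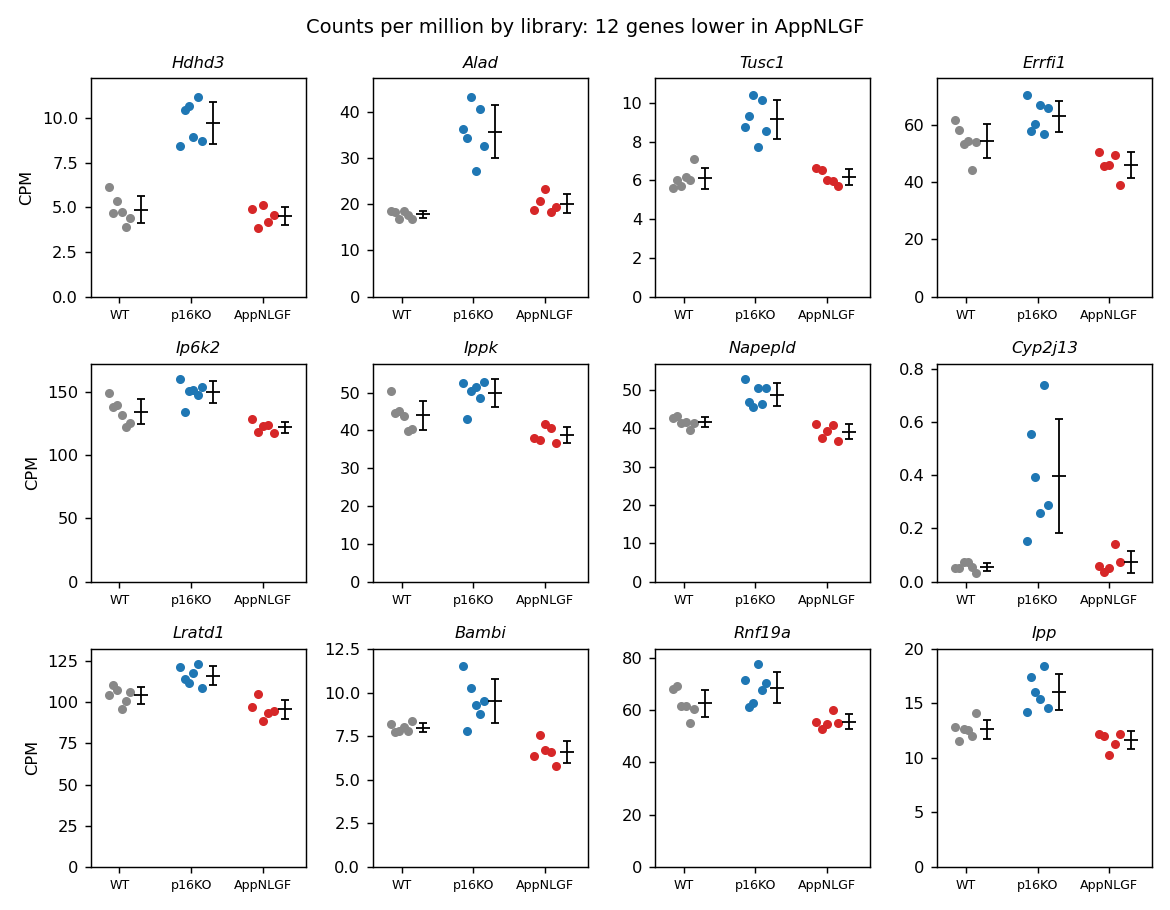
CPM in each WT, p16KO and AppNLGF library for the 12 genes lower in AppNLGF with the smallest p; the bars give mean ± SD. AppNLGF points lie below every p16KO point in all 12 panels, and WT lies with AppNLGF for Hdhd3, Alad, Tusc1 and Cyp2j13.

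Chromosome 4, which carries Cdkn2a, held 18 called genes of 1110 tested (1.62%), the highest share of any chromosome, with chromosome 19 next at 0.958%. These were 8 higher and 10 lower, so that 10 of the 38 lower genes lay there. Relative to WT, Csf3r, Cd52, C1qb and C1qc were called by edgeR in AppNLGF and not in p16KO. Called in p16KO and not in AppNLGF were Phf24, Gm26881, Hdhd3, Alad, Tusc1, Cyp2j13, Rab3b and Hectd3. The others, Zfp189, Scp2, Stil, Ipp, Laptm5 and Errfi1, were called in neither. These comparisons share libraries with each other. Within 10 Mb of Cdkn2a, 2 of 70 tested genes were called between the mutants (2.86%), Tusc1 and Cyp2j13. The median absolute log2 difference there was 0.18 against 0.12 for all genes. Mtap, the neighbour that salvages methylthioadenosine, was 10.4 ± 0.744 CPM in p16KO and 13.1 ± 0.962 CPM in AppNLGF without overlap, with an adjusted p of 0.12. Cdkn2b, the paralogue that encodes p15, differed by -0.19 ± 0.24 on the log2 scale (adjusted p = 0.711). Within 10 Mb of App, 1 of 96 tested genes was called (1.04%): Samsn1, an adaptor protein of haematopoietic cells (0.940 to 1.36 CPM in p16KO against 1.66 to 2.56 CPM in AppNLGF, without overlap, adjusted p = 0.00218).

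Chromosome 4 also held synaptic genes that were higher in AppNLGF. Phf24, which encodes a protein involved in signalling by GABA-B receptors, was 169.9, 177.6, 173.6, 208.2, 165.5 and 185.7 CPM in p16KO and 229.5, 227.8, 247.6, 263.0 and 260.7 CPM in AppNLGF. Rab3b, a small GTPase of synaptic vesicles, was 33.1, 38.0, 31.2, 38.4, 28.9 and 45.9 CPM in p16KO and 55.5, 55.5, 54.0, 51.5 and 60.2 CPM in AppNLGF. Neither overlapped, with log2 differences of 0.44 ± 0.09 (adjusted p = 0.0157) and 0.61 ± 0.12 (adjusted p = 0.0178). WT again stood with AppNLGF, at 243.3 ± 15.5 CPM for Phf24 and 57.2 ± 4.73 CPM for Rab3b. Neither was called without p16KO 11, nor without AppNLGF 17.

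**Figure D5:**
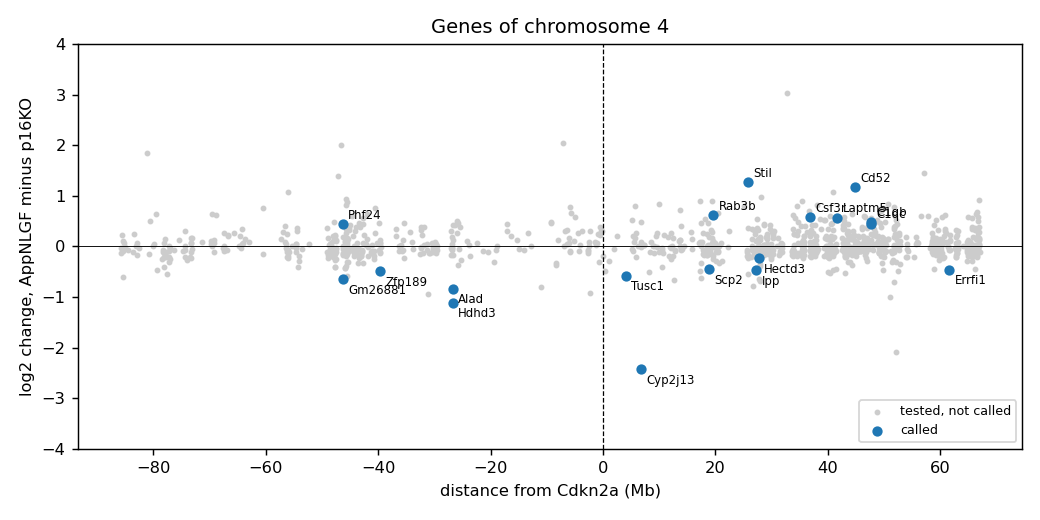
Log2 difference AppNLGF minus p16KO of each tested gene of chromosome 4 against its distance from Cdkn2a in Mb, with called genes in blue; 2 genes lie beyond the y axis. The calls spread over most of the chromosome, from Phf24 at -46.4 Mb to Errfi1 at 61.6 Mb.

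Synaptic and channel lists held few calls, with their members on chromosome 4 included. Over all genes, 14.5% had an unadjusted p under 0.05. Glutamate receptor genes had 0 of 38 called by edgeR (5 at an unadjusted p under 0.05, 2 by DESeq2) and a median of 0.08, and ion channels had 0 of 32 (3 unadjusted, 0 by DESeq2) and a median of 0.09. Gria1, the most abundant glutamate receptor gene listed, was 1081 ± 33.7 CPM in AppNLGF and 1081 ± 84.3 CPM in p16KO. Rab3b was the single call of 32 presynaptic genes, and Phf24 that of 30 for GABA receptors and interneurons. Genes of adult neurogenesis had 0 of 22 called by edgeR (1 unadjusted, 0 by DESeq2).

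Immediate early genes, which neurons transcribe within minutes of activity, were mostly lower in AppNLGF than in p16KO, with overlap between libraries. The list's mean log2 level was -0.31 to -0.01 in AppNLGF libraries and -0.09 to 0.18 in p16KO libraries. CPM of the groups did not overlap for 0 of 32 genes, against 2.99% of all genes. Of 32 tested, 31 were below 0, where 50.6% of all genes were. The median was -0.21 and 0 were called by edgeR, against 4 by DESeq2. At an unadjusted p under 0.05 there were 16 of 32, where 14.5% of all genes were. With length and GC trends removed, 5 were called, Homer1 among them. Homer1, the most abundant, was 161.3 ± 23.6 CPM in p16KO and 132.1 ± 7.28 CPM in AppNLGF (log2 -0.30 ± 0.08, adjusted p = 0.0962), and DESeq2 gave it an adjusted p of 0.0433. Relative to WT the list's median was -0.25 in AppNLGF and -0.06 in p16KO. Circadian clock genes, which also vary with the hour of sampling, had a median of -0.07 and 0 of 22 called by edgeR (4 unadjusted, 0 by DESeq2).

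Respiratory chain genes split by the genome that encodes them. Counts at an unadjusted p under 0.05, here and below, stand against 14.5% of all genes. The 77 nuclear genes had a median of -0.14, with 73 below 0 and 0 called by edgeR (28 unadjusted, 1 by DESeq2), and the 7 mitochondrial genes that were tested had a median of 0.27, all above 0, with 0 called (5 unadjusted, 0 by DESeq2). Summed levels of the mitochondrial list ran from 27810 to 35240 CPM in p16KO and from 37290 to 39760 CPM in AppNLGF, without overlap, and from 30170 to 39080 CPM in WT. The most abundant nuclear member, Atp5b of the ATP synthase, was 1441 ± 55.9 CPM in p16KO and 1293 ± 69.2 CPM in AppNLGF (adjusted p = 0.294). Relative to WT, the nuclear list's median was 0.16 in p16KO and 0.02 in AppNLGF.

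Proteasome subunits were below 0 in 32 of 32 cases (median -0.12, 0 called by edgeR, 15 unadjusted, 0 by DESeq2), and cytosolic ribosomal proteins in 69 of 79 (median -0.10, 0 called, 12 unadjusted, 0 by DESeq2). Over all genes, the log2 difference rose slightly with transcript length, and the lengths of the genes in these lists were not compared. In 4 equal classes of genes from shortest to longest, the median log2 difference of all genes was -0.0309, -0.0224, 0.00412 and 0.0389. With the trends on length and GC content removed, the nuclear respiratory median was -0.12, the proteasome median -0.12 and the ribosomal median -0.08. Heat shock proteins and chaperones had 0 of 31 called (4 unadjusted, 0 by DESeq2) and a median of -0.09, and cholesterol and fatty acid synthesis had 0 of 31 called (0 unadjusted, 0 by DESeq2) and a median of 0.05. The part of RNA quality or mitochondrial share in these lists was not tested.

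In the pathway of p16 itself, edgeR called few genes. The cyclin and retinoblastoma list summed to 660.5 to 696 CPM in p16KO and 627.2 to 655.4 CPM in AppNLGF, without overlap. The p53 target list summed to 945.6 to 1002 CPM in p16KO and 873.3 to 928.6 CPM in AppNLGF, also without overlap. Sums weigh abundant genes most, and the mean log2 levels by library overlapped in both lists. For the cyclin list these were -0.09 to 0.07 in p16KO and -0.0003 to 0.04 in AppNLGF. For the p53 list they were 0.01 to 0.14 and -0.15 to 0.04. Of single genes, 0 of 25 and 3 of 28 did not overlap, against 2.99% of all genes. Summed levels of E2F targets overlapped between the mutants. WT overlapped both mutants in each list. Cyclins, their kinases and inhibitors and the retinoblastoma family had 0 of 25 called by edgeR (4 unadjusted, 0 by DESeq2) and a median of -0.05, with Ccnd2 the most abundant (133.1 ± 8.70 CPM in p16KO, 119.6 ± 7.92 CPM in AppNLGF, adjusted p = 0.269). E2F targets and proliferation genes had 0 of 35 called (8 unadjusted, 0 by DESeq2), and Pcna, the sliding clamp of DNA replication, was 23.8 ± 0.871 CPM in p16KO and 20.3 ± 0.926 CPM in AppNLGF without overlap (adjusted p = 0.123). Targets of p53 had 0 of 28 called (2 unadjusted, 2 by DESeq2), with 24 below 0. Of 30 tested genes of the senescence secretory phenotype, 1 was called, Plau, a secreted protease that activates plasminogen (2.23 ± 0.387 against 3.55 ± 0.809 CPM, adjusted p = 0.0405). The Plau call was lost in 9 of the 11 fits that each left out a library.

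Genes that process the amyloid precursor, and those of lipoproteins and lipid efflux, had 0 of 24 (4 unadjusted, 0 by DESeq2) and 0 of 22 (3 unadjusted, 0 by DESeq2) called by edgeR. Apoe, the main lipoprotein of the brain, was 1484 ± 99.9 CPM in AppNLGF and 1557 ± 99.8 CPM in p16KO (adjusted p = 0.549). Among 27 genes of reactive astrocytes, C4b alone was called (30.7 ± 5.43 against 44.6 ± 7.03 CPM, adjusted p = 0.0322), and the list median was 0.03. The C4b call was lost in 6 of the 11 such fits, in the fit of the compared groups alone and without a count filter. Antigen presentation had 2 of 22 called, and one was B2m, the light chain of class I molecules (75.5 ± 8.90 against 108.6 ± 14.6 CPM, adjusted p = 0.0374), which was lost in 10 of 11 such fits. Extracellular matrix genes had a median of 0.18 with 22 of 29 above 0 and 0 called (7 unadjusted, 0 by DESeq2), while the median was -0.23 in p16KO and -0.01 in AppNLGF relative to WT.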

How the data were processed

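Hippocampal polyA RNA was sequenced as single-end reads of 50 bases, per the labels' protocols. Trimming used cutadapt 4.2, and reads were cleared of ribosomal reads with Bowtie2 2.3.5 and aligned with STAR 2.7.10b, per the submitters' processing notes, which name GRCm38 and also mm39. The deposited table holds raw counts, for which the authors took uniquely aligned reads unambiguously assigned to a gene of Ensembl version 102, per the labels. Of 37060 genes shared with GENCODE M21, 36795 agreed in both coordinates, and positions are therefore those of GRCm38. All columns of the table were used.

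From these counts, edgeR 4.0.16 in R 4.3.3 tested AppNLGF minus p16KO (TMM, filterByExpr with a minimum count of 10, robust quasi-likelihood F test, two-sided). The 4 genotypes and 23 libraries entered 1 fit, with Benjamini-Hochberg adjustment over 19423 genes and a threshold of 0.05. This test gave the adjusted p-values where no other is named. Group values are CPM of total counts as mean ± SD, with n = 5 for AppNLGF and n = 6 for p16KO and WT, and log2 differences carry ± SE. Cdkn2a, too scarce for the fit, was compared by an exact permutation test.

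Gene groups, 30 lists and 18 marker lists, were described by counts and medians without a set test. Named genes were the 12 higher and 12 lower called genes with the smallest p, leaving out predicted genes, and up to 4 called members of each list or its most abundant member. Cdkn2a, Cdkn2b, Mtap, App and called genes within 10 Mb of Cdkn2a or App were added. A gene named by this rule is not reported here. The comparison, lists and rules were chosen with earlier results of these data known. The fit was tested on simulated data. Depth was 40.7e6 to 61.2e6 counts per library; there were no molecular identifiers, so intervals cover counting error only. The p-values measure the spread between these libraries. Alternatives were DESeq2 1.42.0, other size factors and filters, fits of the compared groups alone, with a sex term or without robust dispersion, omission of each library, omission of chromosomes 4 and 16, a stricter threshold and removal of length and GC trends.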

Additional observations from a re-analysis of the deposited data

Results flagged for a closer look

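In a check of the spread within each group, 13 of 200 gene-by-group sets and 3 of 96 list-by-group sets had 1 library far from the others, and chance flags about 5% of such sets. Interferon genes stood apart in AppNLGF 17: Gbp3 was 9.04 CPM against 4.28 to 5.47 in the other AppNLGF libraries, Ifih1 was 7.35 CPM against 4.48 to 5.06, and Ifit3 was 13.7 CPM against 4.05 to 6.45. Ifit3b was lowest in p16KO 8, at 0.997 CPM against 1.76 to 2.20.

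Among microglial genes, Ccl3 was 2.09 CPM in AppNLGF 15 against 0.855 to 1.13, and C1qb was 50.6 CPM in AppNLGF 16 against 65.2 to 68.1. Gpr84 was 0.887 CPM in p16KO 9 against 0.539 to 0.634, and Olfr111 was 0.0594 CPM in p16KO 10 against 0 in each other p16KO library. The presynaptic list was highest in p16KO 8, at 0.00932 on the log2 scale against -0.10 to -0.07.

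Markers of neighbouring tissue or other cells set p16KO 7 apart within its group. Ighm was 46.4 CPM against 8.84 to 14.1, Cd4 was 6.51 CPM against 0.396 to 1.30, and Pde10a, a striatal gene, was 175 CPM against 86.5 to 104. The striatum list was 1.12 there against -0.44 to 0.14, and the T and B lymphocyte list 1.18 against -0.36 to -0.04. In AppNLGF 15, Cd4 was 2.703 CPM against 0.788 to 1.22 and Ppp1r1b, another striatal gene, was 128 CPM against 67.2 to 82.1.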

How the results depend on the processing

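The count of 118 genes was 314 (177 higher, 137 lower) with DESeq2, 207 (147 and 60) from the compared groups alone, 39 (30 and 9) at an adjusted p of 0.01 and 181 with length and GC trends removed, where 82 were lower. With 1 library left out at a time it ran from 50 to 113, the higher genes from 36 to 81 and the lower from 14 to 34. The lowest counts came without AppNLGF 17, where 49 of the 50 were among the 118, followed by 61 without p16KO 11. Removal of length and GC trends and of AppNLGF_p16KO 21 (152 genes, 95 higher and 57 lower) was chosen after seeing the data. Without chromosomes 4 and 16, 97 genes remained. The Cdkn2a difference of 0.0834 CPM ran from 0.0677 to 0.0976 when a library was left out, with exact p of 0.00476 to 0.00794. Of 45 named genes that were called, 23 kept the call under every alternative fitted for them and 0 changed sign; the cause of the losses was not tested. Interferon calls ran from 1 to 17 and plaque-associated calls from 11 to 16. Genes at the level of Cdkn2a or Olfr111, a few reads per library, are limited by depth. No paired analysis was possible because the 2 groups share no replicate number.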
